A study of Ovis aries with 20 samples.

Results

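Vessels of the sheep follicle wall were examined through 10 genes of blood vessel endothelium: VWF, CLDN5, ENG, PECAM1, CDH5, TEK, KDR, FLT1, TIE1 and ROBO4. The genes were taken by name from a table of 28524 genes, and each of the 10 passed the filter on low values that left 16269 genes for testing. RNA sequencing had been done on the theca layer, the vascularised outer wall of the follicle that makes androgen, and on the granulosa layer, which lies inside it around the oocyte and makes estradiol. Both layers were laser-microdissected from sections of ovaries of adult female sheep, with several antral follicles of an animal pooled into 1 library per layer.

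The animals were daughters of ewes that had been given testosterone propionate (prenatal T animals; 100 mg, or 1.2 mg per kg, injected into muscle 2 times per week over gestational days 30 to 90) or the vehicle alone (control animals). They were 21 months old. All of them, control animals included, had received 2 injections of 10 mg prostaglandin F2 alpha with 11 days between them, and their ovaries were taken 18 h after the second. The groups were prenatal T theca (n = 5, 14063768 to 15559527 reads per library), control theca (n = 5, 14316845 to 18057852 reads), prenatal T granulosa (n = 5, 12699124 to 16065633 reads) and control granulosa (n = 4, 13561425 to 26028146 reads). The granulosa library of control sheep 139 was not analysed here. An animal is named below by its sheep number.

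Theca is supplied by a capillary and lymphatic network that lies outside the follicular basal lamina, and the granulosa layer has no vessels of its own until the follicle ovulates. Endothelial cells carry receptors for growth factors that start and guide vessel growth (KDR and FLT1 for the VEGF family), receptors that settle new vessels into stable ones (TEK and its partner TIE1 for the angiopoietins), and junction proteins that hold neighbouring cells together and seal the vessel (CDH5, PECAM1 and CLDN5). In the ovary this network grows and regresses with each follicle, and it brings gonadotropins and lipoprotein cholesterol to the steroid-making cells.

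Values are gene counts scaled by the authors with 1 factor per library (normalized counts). They can be compared between libraries for 1 gene but not between genes, since they are not scaled by gene length. Differences are on the log2(normalized count + 1) scale with their standard error (SE), and a gene was called where limma's p, adjusted by the Benjamini-Hochberg method over all 16269 genes, was under 0.05. Within a layer these p-values measure the spread between animals. Tests over both layers took the animal as a block, so they rest also on how the layer difference varies between animals.

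Both libraries of prenatal T sheep 209 stood apart from the rest. The granulosa genes AMH and FSHR and the androgen-synthesis gene CYP17A1 were at 0 in both of them. The epithelial keratin KRT19 had 9626 normalized counts in theca of sheep 209, against at most 93.1 in other theca libraries, and 34371 in its granulosa library, against at most 416 in other granulosa libraries. The leukocyte gene PTPRC had 8427 and 9373 in the theca and granulosa libraries of sheep 209. Results that rest on this animal are therefore also given without it.

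Of the 10 endothelial genes, 9 were higher in theca than in granulosa. The differences of these 9 ran from 1.56 for TEK to 2.86 for VWF on the log2 scale, and FLT1 was the exception. In the same comparison 28% of all genes tested were called higher in theca, 29.2% lower and 57.2% in either direction. Counts of called genes in the lists below are to be read beside these shares. The median difference was 2.19 over the 10 genes and -0.03 over all genes tested. Without sheep 209 the same comparison called 9 of the 10 genes higher in theca and 0 lower, against 32.2% and 32.9% of genes tested (65.2% in either direction). Theca and granulosa libraries did not overlap for 8 of the 10 genes, all but PECAM1 and FLT1, where 4.59% of all genes tested had every theca value above every granulosa value and 0.885% had every one below. Without sheep 209 these numbers were 9 of 10 genes, 10.9% and 5.65%. In bulk libraries, fewer endothelial cells and less RNA per endothelial cell cannot be told apart.

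**Figure D1:**
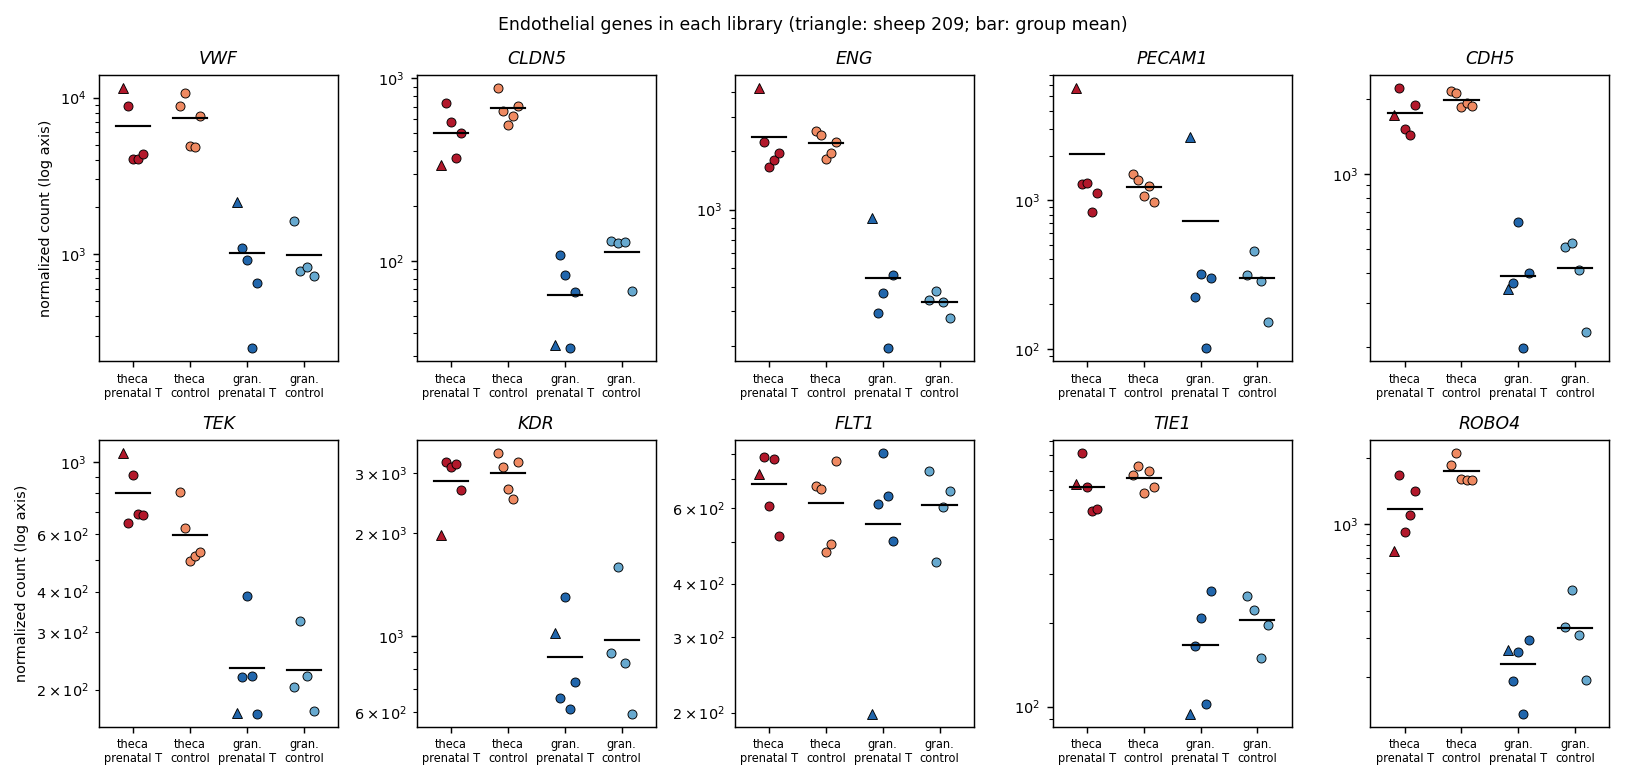
Normalized counts (log axis) of the 10 endothelial genes in each of the 19 libraries, with theca prenatal T, theca control, granulosa (gran.) prenatal T and granulosa control from left to right. Points are animals, triangles are sheep 209 and bars are group means. The theca libraries lie above the granulosa libraries for 8 genes without overlap, FLT1 overlaps between the layers, and prenatal T and control animals overlap in every panel.

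VWF and CLDN5 had the 2 largest layer differences of the members. VWF, the von Willebrand factor that endothelial cells store and release to bind platelets, ranged over 4029 to 11579 normalized counts in the 10 theca libraries (median 6260), against 250 to 2154 (median 821) in the 9 granulosa libraries. Its lowest theca value lay above its highest granulosa value. The difference was 2.86 ± 0.20 (SE; limma adjusted p = 1.75e-09). CLDN5, a claudin that seals endothelial tight junctions, had 334 to 890 normalized counts in theca (median 600) and 33.2 to 128 in granulosa (median 83.3). These ranges too were apart, by 2.79 ± 0.14 (limma adjusted p = 3.09e-11). CDH5, the cadherin of endothelial adherens junctions, had 1439 to 2230 in theca (median 1892) and 198 to 642 in granulosa (median 398), a difference of 2.28 ± 0.14 (limma adjusted p = 3.93e-10).

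PECAM1, an adhesion molecule of endothelial junctions that leukocytes and platelets also carry, had its highest value of each layer in sheep 209. It ranged over 832 to 5737 normalized counts in theca (median 1274), against 101 to 2667 in granulosa (median 300). The granulosa value of sheep 209 lay above every theca value of the other animals. Without that animal theca ranged over 832 to 1498 and granulosa over 101 to 457, with no overlap. The layer difference was 2.09 ± 0.26 (limma adjusted p = 3.04e-06) with sheep 209 and 2.22 ± 0.16 (limma adjusted p = 3.55e-09) without it. In sheep 209 PTPRC was high as well, and its part in the PECAM1 level was not tested.

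The listed genes of endothelial junctions and adhesion did not move as a block. Of 12 tested, 4 were called higher in theca and 3 lower, with a median difference of -0.03. Among all genes tested 28% were called higher and 29.2% lower. JAM2, a junctional adhesion molecule, was higher by 2.85 ± 0.13, RASIP1, a Rap1 effector in vessel lumen formation, by 2.26 ± 0.17, ESAM, an endothelial adhesion molecule, by 2.10 ± 0.16 and JAM3 by 0.61. CTNNB1, the beta-catenin that binds cadherins in most cell types, was lower in theca (-0.41 ± 0.04), as were OCLN (-0.999) and JUP (-0.33), junction genes of epithelia as well. Without sheep 209 these counts were 5 higher and 5 lower, with a median of -0.14. The genes added were CTNND1 (0.16) as higher, and F11R (-0.19) and AMOTL2 (-0.44) as lower. JAM3, OCLN, JUP and these 3 genes were named after their values were seen.

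Of the VEGF receptors, KDR differed between layers and FLT1 did not pass the test. KDR, the receptor through which VEGFA drives endothelial growth, had 1971 to 3432 normalized counts in theca (median 3120) and 594 to 1589 in granulosa (median 835). The layers did not overlap, and the difference was 1.71 ± 0.15 (limma adjusted p = 3.36e-08). FLT1, a VEGF receptor that also has a secreted form able to bind the ligand without signalling, had 473 to 789 in theca (median 669) and 199 to 807 in granulosa (median 614). These ranges overlapped, and the lowest granulosa value was that of sheep 209. The difference was 0.21 ± 0.16 (limma adjusted p = 0.284), and without sheep 209 it was 0.03 ± 0.10 (limma adjusted p = 0.802). Reads were counted per gene, so the membrane and secreted forms are not separated.

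Of 7 tested ligands and co-receptors of the VEGF receptors, 3 were called higher in theca and 1 lower. Over all genes tested these shares were 28% and 29.2%. VEGFA, the main ligand of KDR and FLT1, averaged 713 ± 378 normalized counts in theca (SD, n = 10) and 2359 ± 853 in granulosa (SD, n = 9), a difference of -1.70 ± 0.22 (limma adjusted p = 5.09e-06). The ligand was lower in theca, where KDR was higher. FLT4, the lymphatic VEGF receptor, was higher in theca by 2.71 ± 0.21 (limma adjusted p = 9.99e-09). PGF, a ligand of FLT1, was higher by 0.91 ± 0.34 (limma adjusted p = 0.0297). NRP2, a co-receptor, was higher by 0.71 ± 0.22 (limma adjusted p = 0.0113), and by 0.46 without sheep 209. VEGFD did not pass the filter on low values. Without sheep 209, 3 were called higher in theca and 2 lower, and the second was NRP1, a co-receptor (-0.56, limma adjusted p = 0.000484, against -0.35 with all animals). NRP1 was named here after its value was seen.

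TEK and TIE1, the tyrosine kinase receptor of the angiopoietins and its orphan partner, were both higher in theca. TEK ranged over 498 to 1065 normalized counts in theca (median 668) and 169 to 387 in granulosa (median 219), and TIE1 over 502 to 815 in theca (median 624) and 94.4 to 261 in granulosa (median 197). Neither gene overlapped between the layers. TEK differed by 1.56 ± 0.13 (limma adjusted p = 1.62e-08) and TIE1 by 1.84 ± 0.14 (limma adjusted p = 5.62e-09).

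All 5 listed partners of these receptors were called, 4 higher in theca and 1 lower. PTPRB, a phosphatase that acts on TEK, was higher by 2.41 ± 0.12, and SVEP1, an extracellular matrix protein that binds TIE1, by 2.28 ± 0.24. ANGPT1, the agonist ligand of TEK, averaged 87.5 ± 37.4 normalized counts in theca (SD, n = 10) and 22.0 ± 5.09 in granulosa (SD, n = 9), a difference of 1.82 ± 0.17 (limma adjusted p = 8.32e-08). ANGPT2, which can block TEK, went the other way, with 4451 ± 2199 in theca (SD, n = 10) and 12473 ± 5640 in granulosa (SD, n = 9), a difference of -1.18 ± 0.45 (limma adjusted p = 0.0320). Without sheep 209 the ANGPT2 difference was -1.49. ANGPT4, a further angiopoietin, was the fifth, at 0.54. It was named after its value was seen.

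ENG, the co-receptor endoglin that presents BMP and TGF-beta ligands to their receptors on endothelium, had 1656 to 4229 normalized counts in theca (median 2084) and 194 to 904 in granulosa (median 342). Sheep 209 was the highest animal in both layers, and the layers did not overlap with or without it. The difference was 2.59 ± 0.14 (limma adjusted p = 7.27e-11). Of its 10 tested partners 6 were called higher in theca and 1 lower. ACVRL1, the ALK1 receptor that works with endoglin, was higher by 2.09 ± 0.16, TGFBR2 by 2.24 ± 0.22 and the target gene ID1 by 1.07 ± 0.13. BMPR2, a receptor of many cell types, was lower in theca by a small amount (-0.31 ± 0.06). Without sheep 209, 6 were called higher and 2 lower, the second being ID2 (-0.44, limma adjusted p = 0.0094, against -0.30 with all animals), which was named after its value was seen.

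ROBO4, a roundabout receptor that stabilises endothelial barriers, had 754 to 2122 normalized counts in theca (median 1590) and 136 to 498 in granulosa (median 266). The layers were apart, by 2.39 ± 0.15 (limma adjusted p = 6.23e-10). Of the secreted SLIT ligands of roundabout receptors, SLIT2 and SLIT3 were higher in theca too. SLIT2 averaged 2460 ± 1296 in theca (SD, n = 10) and 227 ± 157 in granulosa (SD, n = 9), a difference of 3.49 ± 0.20, and SLIT3 differed by 3.86 ± 0.37. UNC5B, a receptor that binds ROBO4, was higher in theca by 0.54 ± 0.13, and ROBO2, known from axon guidance, by 0.87 ± 0.26, or 1.20 without sheep 209. SLIT1 and ROBO1, at -0.97 and 0.31, did not pass the test with all animals. Without sheep 209 both did, SLIT1 as lower in theca (-1.74, limma adjusted p = 9.2e-05) and ROBO1 as higher (0.48, limma adjusted p = 0.00149), so that 5 of 6 were called higher and 1 lower.

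**Figure D2:**
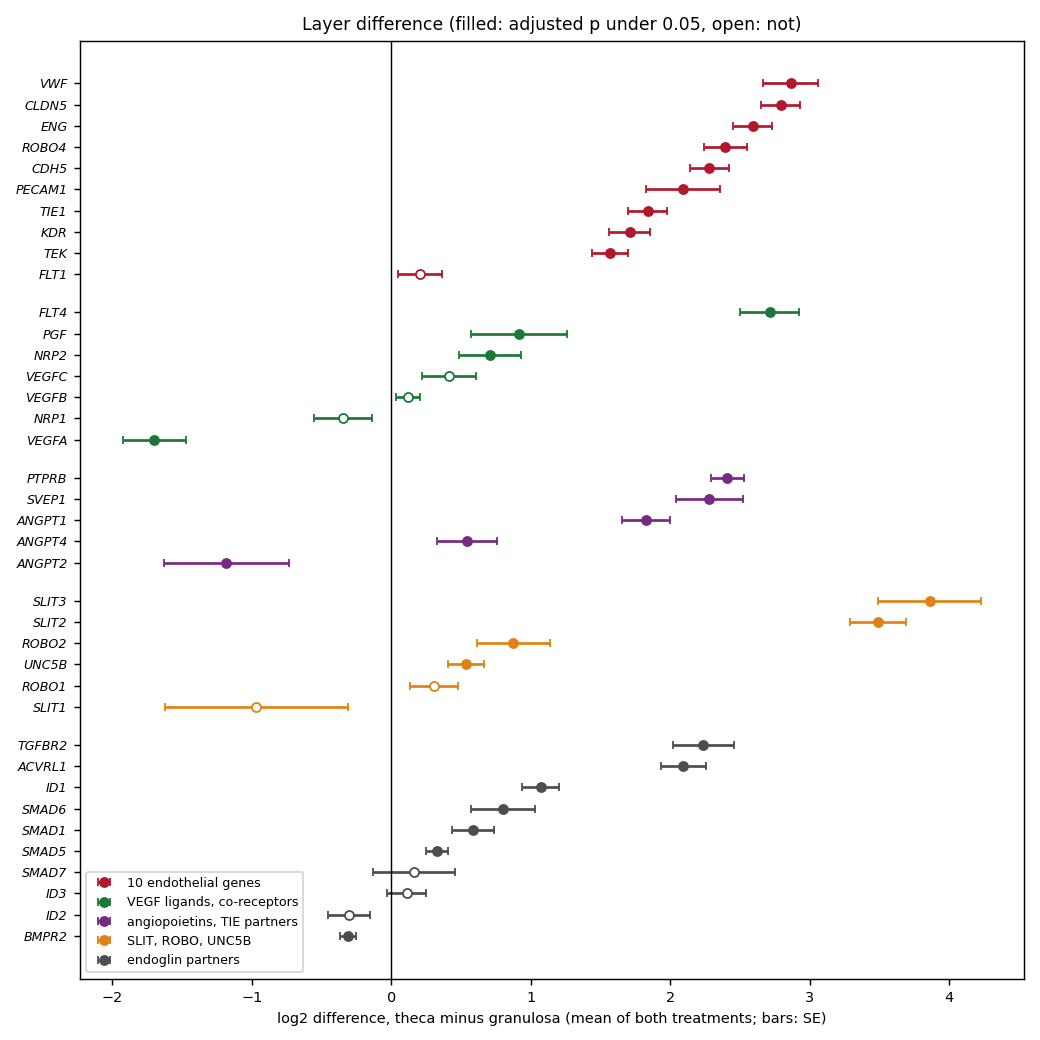
Theca minus granulosa difference on the log2 scale for the 10 endothelial genes and for the listed partners of the VEGF, angiopoietin, roundabout and endoglin receptors. Points are limma estimates, bars are SE, and filled points have an adjusted p under 0.05. The 9 filled endothelial genes lie between 1.56 and 2.86, FLT1 is open at 0.21, and VEGFA and ANGPT2 lie to the left of 0.

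Within an animal, granulosa held a small share of the theca level of most members. With each granulosa level taken as a percentage of the theca level of the same animal, the median over 8 animals without sheep 209 was 14.5% for CLDN5, 15.2% for VWF, 15.7% for ENG and 17.8% for ROBO4. It was 21.0% for CDH5, 23.0% for PECAM1 and 28.0% for KDR, and it was 32.9% for TIE1 and 33.1% for TEK. Neighbours in this order overlapped: ENG ran over 10.8% to 23.7% and ROBO4 over 11.3% to 30.8% across the animals. FLT1 stood at 96.0%, with a range of 77.8% to 133%. Its lowest share lay above the highest share of each other member, which was 65.0%, for TEK. With sheep 209 included, theca was higher in 9 of 9 animals for each of the 9 other members and in 6 of 9 for FLT1, and the FLT1 share of sheep 209 was 27.6%.

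Genes of theca cells and of the mural cells around vessels were also found in granulosa libraries, with lower median shares than the endothelial genes. The median share was 11.2% over 12 listed theca genes, 16.8% over 12 genes of pericytes and smooth muscle and 22.0% over the 10 endothelial genes, all without sheep 209. It was 101% over the 15753 tested genes with a theca value above 0 in each of these animals. Medians of single genes ran from 5.1% to 30.5% in the theca list and from 2.21% to 90.4% in the pericyte and smooth muscle list. They ran from 14.5% to 96.0% in the endothelial genes. Of the pericyte and smooth muscle genes 11 of 12 were called higher in theca, and all 12 theca genes were. The part of tissue carried over between the layers in the granulosa level of the endothelial genes was not tested.

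**Figure D3:**
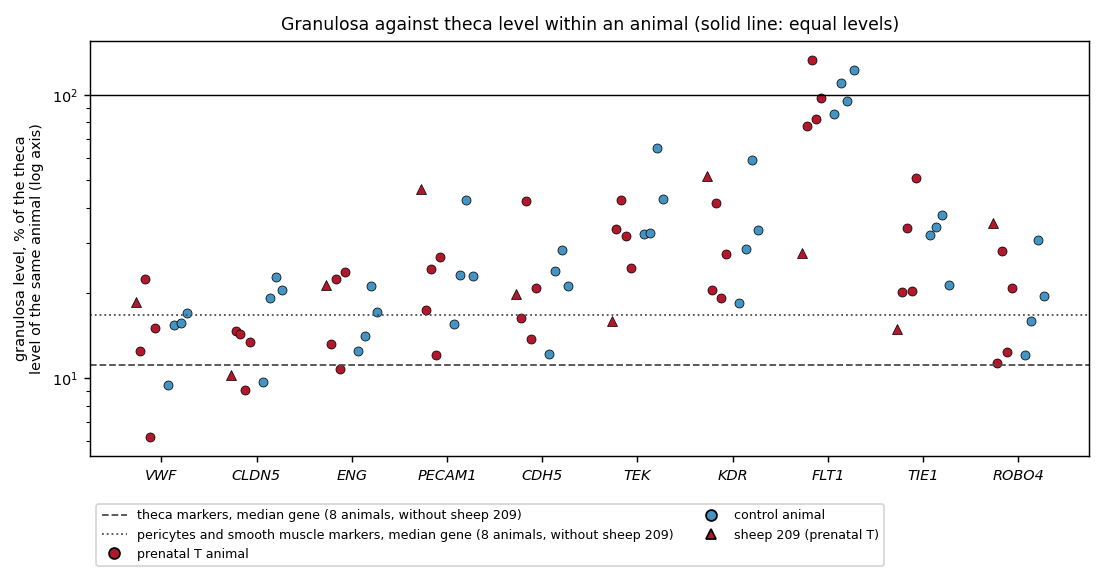
Granulosa level of each endothelial gene as a percentage of the theca level in the same animal (log axis) for 9 animals, with prenatal T animals left of control animals and sheep 209 as a triangle. The dashed and dotted lines give the median gene of the theca list (11.2%) and of the pericyte and smooth muscle list (16.8%). FLT1 lies around the line of equal levels in 8 animals and at 27.6% in sheep 209.

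Blood cells that share some of the members were represented to different degrees. Of 7 platelet genes in the table, TREML1 was at 0 in all 19 libraries, GP9 and GP6 were above 0 in 1 library each, and PPBP did not exceed 5.92 normalized counts. The platelet list summed to 43.0 to 111 in prenatal T theca, 73.8 to 152 in control theca, 37.2 to 75.9 in prenatal T granulosa and 39.0 to 114 in control granulosa, most of it ITGA2B. Only 2 platelet genes passed the filter on low values. Both were called higher in theca than in granulosa, against 28% of all genes tested. Without sheep 209, 1 of the 2 was called, against 32.2%. The 10 leukocyte genes summed to 936 to 22203 in prenatal T theca and 1766 to 3303 in control theca. Of the 10, 5 were called higher in theca than in granulosa, against 28% of all genes tested. They were PTPRC, CSF1R, CD3E, C1QA and C1QC, named after their values were seen. The highest sum was that of sheep 209, and without it prenatal T theca ended at 4803.

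Endothelial genes beyond the 10 followed the layers in the same direction. Of 24 tested genes of endothelial surface and signalling, 22 were called higher in theca and 0 lower, with a median difference of 2.12. Among them MMRN2, a matrix protein of vessels, was higher by 2.37 ± 0.12, EMCN, the sialomucin endomucin, by 2.597 ± 0.14, CYYR1 by 2.57 ± 0.14 and CALCRL, the receptor of adrenomedullin, by 2.75 ± 0.15. NOS3, the endothelial nitric oxide synthase, and TM4SF1 did not pass the test, at 0.40 and 0.44. Without sheep 209 TM4SF1 passed (0.56, limma adjusted p = 0.0118), which made 23 of 24. Of 17 endothelial transcription factors 14 were called higher in theca and 1 lower. SOX18 was higher by 2.76 ± 0.15, ERG by 2.46 ± 0.17, TAL1 by 2.46 ± 0.18 and ETS1 by 1.90 ± 0.13, all 4 of them regulators of endothelial identity. The one lower in theca was FOXO1 (-1.51), named after its value was seen.

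Genes of vessel subtypes were mixed. Of 16 tested genes of arterial, venous and tip endothelium 10 were called higher in theca and 2 lower. NR2F2, a venous regulator that stromal cells also express, was higher by 2.59 ± 0.11, GJA5, an arterial connexin, by 2.59 ± 0.25, APLN by 2.41 ± 0.15 and its receptor APLNR by 1.91 ± 0.22. EFNB2 (-0.27) and HEY2 (-1.45), both arterial genes, were the 2 lower in theca and were named after their values were seen. Without sheep 209 EFNB2 was not called (-0.16, limma adjusted p = 0.125). Of 7 lymphatic genes 5 were called higher in theca and 1, STAB2, lower. CCL21, a chemokine of lymphatic vessels, had the largest difference of the list at 5.44 ± 0.49, followed by RELN at 4.53 ± 0.25, FLT4 at 2.71 and LYVE1 at 2.14 ± 0.16. PROX1, the regulator of lymphatic identity, differed by 0.62. STAB2 and PROX1 were named after their values were seen.

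In theca, none of the 10 genes passed the test between prenatal T and control animals. Limma called 0 of 10 members and 0 of 16269 genes (0%), with 1261 genes at an unadjusted p under 0.05. edgeR also called 0 genes, and DESeq2 called 7, none of them a member. Prenatal T animals were above control animals in 4 of the 10 genes, with a median difference of -0.11 over the members and 0.00 over all genes tested. No member had groups that did not overlap, where 1.24% of genes tested had every prenatal T value above every control value and 0.971% had every one below. Without sheep 209 the groups overlapped for each member too, where these shares were 2.45% and 2.03%.

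ROBO4 had the lowest unadjusted p of the members in theca. It had 754 (sheep 209), 921, 1103, 1418 and 1688 normalized counts in prenatal T theca, against 1586, 1595, 1618, 1864 and 2122 in control theca. Of the 5 prenatal T animals 4 lay below every control animal, and sheep 210 lay among the controls. The difference was -0.63 ± 0.21 (SE; unadjusted p = 0.0121, limma adjusted p = 0.641) and -0.48 ± 0.17 without sheep 209 (limma adjusted p = 0.380).

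The groups overlapped more for CLDN5 than for ROBO4. Prenatal T theca had CLDN5 at 334 (sheep 209), 364, 504, 579 and 732 normalized counts, against 556, 621, 666, 705 and 890 in control theca. Of the prenatal T animals 3 lay below every control animal, with a difference of -0.49 ± 0.22 (unadjusted p = 0.0499, limma adjusted p = 0.641) and -0.36 ± 0.20 without sheep 209. TEK lay in the other direction, with 649, 687, 691, 910 and 1065 (sheep 209) in prenatal T theca, against 498, 514, 530, 626 and 807 in control theca. Every prenatal T animal lay above 4 of the control animals, and sheep 139 of the controls lay above 3 of the prenatal T animals. The TEK difference was 0.42 ± 0.18 (unadjusted p = 0.0418, limma adjusted p = 0.641) and 0.31 ± 0.16 without sheep 209.

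For VWF, PECAM1 and ENG the theca estimate depended on sheep 209. VWF had 4029, 4068, 4351, 8793 and 11579 (sheep 209) normalized counts in prenatal T theca, against 4845, 4920, 7601, 8856 and 10627 in control theca. Of the prenatal T animals 3 lay below every control, sheep 210 lay among the controls and sheep 209 above all of them. The difference was -0.25 ± 0.35 with sheep 209 and -0.49 ± 0.29 without it. PECAM1 had 832, 1113, 1297, 1311 and 5737 (sheep 209) in prenatal T theca, against 978, 1072, 1251, 1362 and 1498 in control theca. Apart from sheep 209 the groups covered one range, and the difference of 0.35 ± 0.44 was -0.12 ± 0.17 without that animal.

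ENG repeated this pattern, with 1656, 1788, 1948, 2220 and 4229 (sheep 209) normalized counts in prenatal T theca and 1807, 1942, 2225, 2422 and 2520 in control theca. The groups overlapped, with a difference of 0.04 ± 0.24, or -0.20 ± 0.13 without sheep 209. The other 4 members, KDR, FLT1, CDH5 and TIE1, differed by -0.19 (CDH5) to 0.16 (FLT1) in theca, with SE of 0.13 to 0.18. Their groups overlapped. KDR, at -0.09, was 0.03 without sheep 209.

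In granulosa the 10 genes did not pass the test either. Limma called 0 of 10 members and 0 of 16269 genes (0%), with 691 genes at an unadjusted p under 0.05. edgeR called 0 genes and DESeq2 20, none of them a member. Prenatal T animals were above control animals in 2 of 10 genes, and the median difference was -0.17 over the members and -0.01 over all genes tested. With single animals left out the count of members above control was 2 to 5, with 5 without sheep 246, 4 without sheep 276 and 3 without sheep 244 or 315. Groups overlapped for each member, where 0.688% of genes tested had every prenatal T value above and 1.67% every one below the control values. The same held for each member without sheep 209, with shares of 1.09% above and 2.73% below.

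CLDN5 had the lowest unadjusted p in granulosa. It had 33.2, 34.5 (sheep 209), 67.5, 83.3 and 108 normalized counts in prenatal T granulosa, against 68.4, 126, 127 and 128 in control granulosa. Of the 4 control animals 3 lay above every prenatal T animal, and sheep 224 lay among them. The difference was -0.88 ± 0.42 (SE; unadjusted p = 0.0665, limma adjusted p = 0.879) and -0.69 ± 0.39 without sheep 209. ROBO4 had 136, 191, 260, 266 (sheep 209) and 295 in prenatal T granulosa, against 193, 311, 337 and 498 in control granulosa. Again 3 control animals lay above every prenatal T animal and sheep 224 did not, with a difference of -0.52 ± 0.32 (unadjusted p = 0.137, limma adjusted p = 0.879).

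The other 8 members differed by -0.38 (TIE1) to 0.35 (PECAM1) in granulosa, with SE of 0.29 to 0.82. PECAM1 had 101, 225, 300, 318 and 2667 (sheep 209) normalized counts in prenatal T granulosa, against 151, 286, 314 and 457 in control granulosa. Without sheep 209 its difference was -0.38 ± 0.42. FLT1 had 199 (sheep 209), 502, 614, 639 and 807 in prenatal T granulosa, against 449, 602, 659 and 731 in control granulosa. Leaving out sheep 209 changed the FLT1 difference to 0.07 ± 0.19, against -0.26 ± 0.38 with it.

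Theca genes were measured in the same granulosa libraries. Over the 12 listed theca genes the mean log2 level was 9.08 to 10.1 in prenatal T granulosa without sheep 209 (n = 4), against 9.88 to 10.7 in control granulosa (n = 4), and the median difference of the list was -0.65. The median of the 10 endothelial genes was -0.21 without that animal. No theca gene of the list was called, and the part of these genes in the endothelial values was not tested.

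**Figure D4:**
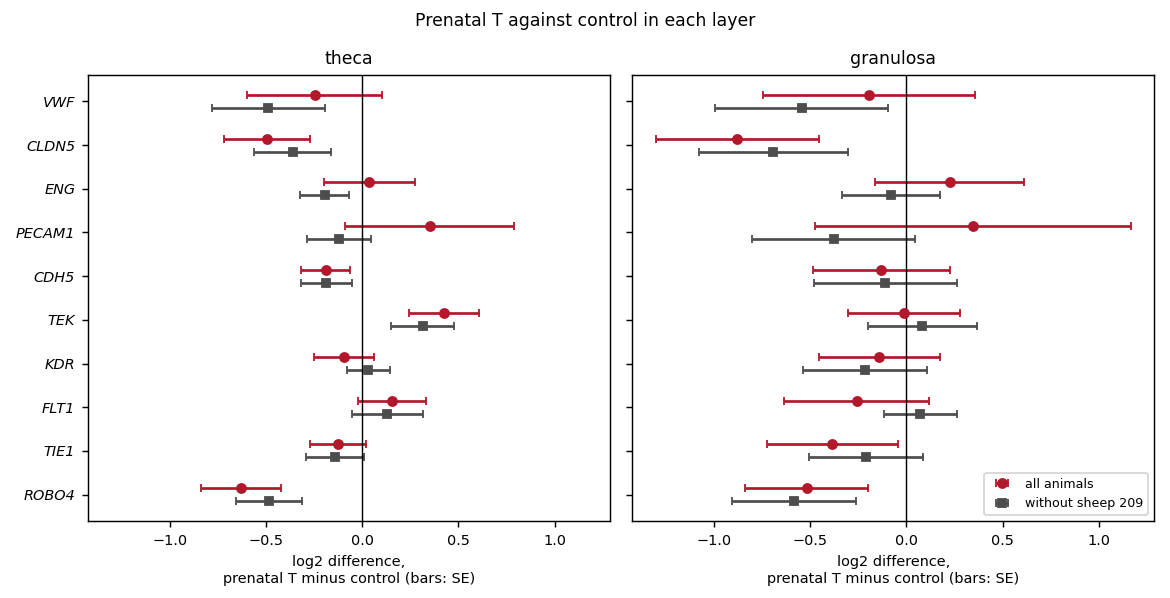
Prenatal T minus control difference on the log2 scale for the 10 endothelial genes in theca (left) and granulosa (right). Circles are limma estimates with all animals, squares are those without sheep 209, and bars are SE. No estimate passed the test. VWF, CLDN5, CDH5, TIE1 and ROBO4 lie left of 0 in both layers with and without sheep 209. PECAM1 and ENG change side without it in both layers.

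Whether the prenatal T difference itself depended on the layer was tested as an interaction. Limma called 0 of 10 members and 0 of 16269 genes (0%), with 881 genes at an unadjusted p under 0.05. edgeR and DESeq2 called 0 members. The difference of effects, theca minus granulosa, ran from -0.16 ± 0.28 for ENG to 0.51 ± 0.26 for TEK (unadjusted p = 0.0636, limma adjusted p = 0.938). Without sheep 209 TEK was 0.29 ± 0.24 (limma adjusted p = 0.747) and ENG -0.088 ± 0.23 (limma adjusted p = 0.934). Both layers of an animal enter this test. Limma took the animal as a block, while edgeR and DESeq2 had no term for the animal.

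With limma fitted to each layer alone, no gene in any of the 9 lists of endothelial pathways was called between prenatal T and control animals. In theca the lowest unadjusted p of these lists were those of EPHB4, a venous ephrin receptor, and TM4SF18. EPHB4 averaged 1515 ± 171 normalized counts in prenatal T theca and 2067 ± 173 in control theca (SD, n = 5 each), a difference of -0.45 ± 0.11 (unadjusted p = 0.00162, limma adjusted p = 0.641). TM4SF18 averaged 148 ± 12.2 in prenatal T theca and 80.4 ± 24.6 in control theca (SD, n = 5 each), a difference of 0.92 ± 0.23 (unadjusted p = 0.00209, limma adjusted p = 0.641). Of the other named genes, VEGFB (-0.37), FGD5 (-0.41), TJP1 (-0.30), RADIL (-0.89), NRP1 (-0.58) and LYVE1 (0.58) had unadjusted p of 0.0124 to 0.0463 in theca.

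In granulosa FGD5, an exchange factor for Cdc42 that acts in VEGF signalling of endothelium, had the lowest unadjusted p of these lists. It averaged 161 ± 27.1 normalized counts in prenatal T granulosa (SD, n = 5) and 519 ± 176 in control granulosa (SD, n = 4), a difference of -1.64 ± 0.24 (unadjusted p = 7.02e-05, limma adjusted p = 0.571). The calls depended on the test: with both layers in 1 model and the animal as a block its adjusted p was 0.0140, and by DESeq2 it was 3.50e-06. EPHB4 differed by -0.66 ± 0.13 in granulosa (limma adjusted p = 0.879; DESeq2 adjusted p = 0.00587). NRP1 averaged 6125 ± 2977 in prenatal T granulosa (SD, n = 5) and 13341 ± 2459 in control granulosa (SD, n = 4), a difference of -1.37 ± 0.53 (limma adjusted p = 0.879), or -0.86 without sheep 209. CD34 (-1.54, or -0.9998 without sheep 209), TJP1 (-0.27) and NR2F2 (-0.38) had unadjusted p of 0.0308 to 0.0416 in granulosa.

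For the difference of effects, theca minus granulosa, FGD5 again had the lowest unadjusted p of the lists, with 1.28 ± 0.20 (unadjusted p = 6.05e-06, limma adjusted p = 0.0985). It averaged 606 ± 93.1 normalized counts in prenatal T theca and 806 ± 128 in control theca (SD, n = 5 each). RELN (1.58), TAL1 (-1.06), CD34 (1.18), SLIT2 (0.87) and BMPR2 (0.25) had unadjusted p of 0.00506 to 0.0498. None passed the test.

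Among the theca libraries the 10 genes did not all rise and fall together. Sheep 139 was among the 3 highest of 10 theca libraries in 8 of the 10 genes, and sheep 210 and sheep 244 in 6. Sheep 276 was among the 3 lowest in 7 genes. Sheep 209 was the highest library for 4 members (VWF, ENG, PECAM1 and TEK) and the lowest for 3 (CLDN5, KDR and ROBO4). Without sheep 209 the SD of log2 values between theca libraries ran from 0.15 for KDR to 0.55 for VWF, with a median of 0.28 over the members and 0.31 over all genes tested. Between granulosa libraries, also without sheep 209, the median SD was 0.55 over the members and 0.34 over all genes tested.

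**Figure D5:**
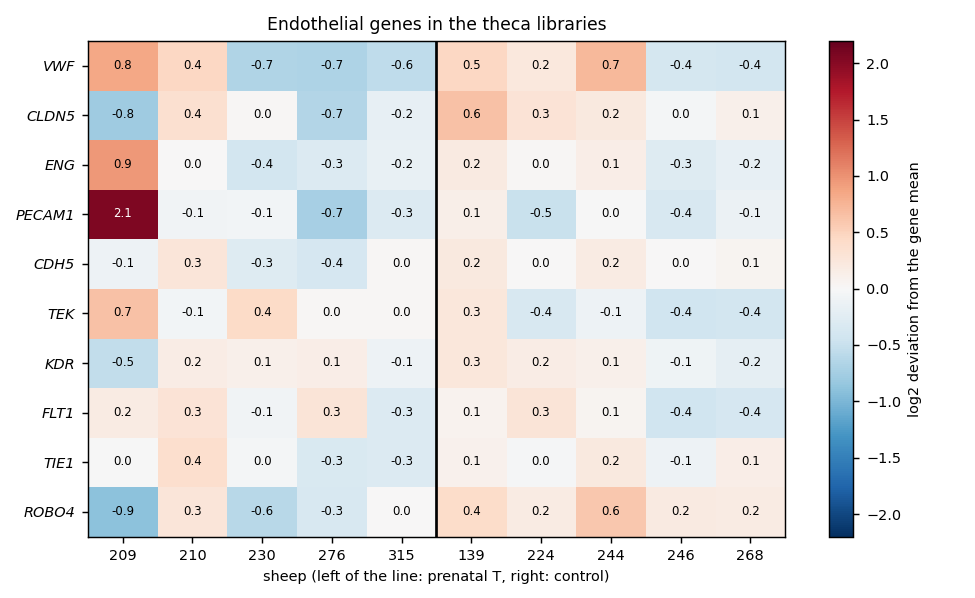
Deviation of each endothelial gene from its own mean over the 10 theca libraries on the log2 scale, by sheep, with prenatal T animals left of the line and control animals right of it. Red is above and blue below the gene's mean. The 2.1 of PECAM1 in sheep 209 is the largest deviation, and sheep 139 is at or above the mean for each gene.

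The rank order of the theca libraries was shared by most members. Spearman's rho of a member with the mean of the other 9 over the 10 theca libraries, which share sequencing depth and animals, was 0.81 for VWF, 0.72 for ENG and 0.71 for CLDN5 and TIE1. It was 0.62 for PECAM1 and 0.60 for CDH5, and lower for ROBO4 (0.39), KDR and FLT1 (0.35 each). TEK had -0.09. Without sheep 209, over 9 libraries, rho was 0.95 for CLDN5, 0.80 for VWF and CDH5, 0.78 for TIE1, 0.77 for ENG, 0.73 for PECAM1 and 0.67 for ROBO4. It was 0.52 for KDR, 0.32 for FLT1 and -0.12 for TEK. Of 10671 other genes with a symbol and a theca mean of at least 100, those most like the mean of the members included CARD19 and CARD10 (rho = 0.94 each), CELF2 (0.93) and ABCA5 (0.92). Without sheep 209 the most alike included CELF2 (rho = 1), SAMD14 (0.98), PDGFRB and THTPA (0.97 each), and CELF2 was among the 5 most alike in both. PDGFRB, the growth factor receptor of pericytes, had a rho of 0.90 with sheep 209. It was the highest of the 12 listed pericyte and smooth muscle genes, which shared this likeness to different degrees. With sheep 209, MYH11 had 0.685, MCAM 0.66, CNN1 and LMOD1 0.61 each and NOTCH3 0.56. TAGLN had 0.39, ACTA2 0.38, DES 0.37 and CSPG4 0.24. The lowest was KCNJ8, at -0.055 with sheep 209 and -0.18 without it, and RGS5 had 0.25 and 0.17. These values describe likeness over 10 and 9 libraries only.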

How the data were processed

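Each deposited value is a signal, namely a gene's count in a library after the authors' scaling by 1 factor per library. The submitters' processing notes name the aligner STAR 2.6.0c, the counter featureCounts (Subread 1.6.1), DESeq2, and for read quality FastQC 0.11.5 and MultiQC 0.9. Libraries were stranded and depleted of ribosomal RNA per the labels' protocols. The sources used here give no genome build. All 10 endothelial gene names matched protein-coding genes of a RefSeq table of sheep assembly ARS-UI_Ramb_v3.0. Values in 100% of cases were whole multiples of 1 step per library (to within a relative 1e-06). Dividing by that step recovered the reads, 12699124 to 26028146 per library. Of 20 samples in the labels, 19 had a column, and 0 columns lacked a sample.

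The members and gene lists were chosen with earlier results of these data known. The filter kept 16269 of 24823 genes above 0, those that reached 10 normalized counts in 5 or more libraries. After adding a pseudocount of 1 and taking log2, limma 3.58.1 with its trend option (R 4.3.3) gave two-sided p-values, adjusted by Benjamini-Hochberg, with a threshold of 0.05. Layers, and the difference of the prenatal T effects, were fitted over all groups with the animal as a block (correlation 0.62), and prenatal T against control in each layer alone. Both layers came from the same animals: deviations of an animal's layers from their group means had r = 0.42 to 0.80 over genes (not independent of each other), and in 9 of 9 animals a theca library was most like the granulosa library of its own animal. The fits were also run on simulated data with known changes. These data had no animal effect, so they did not test the use of the block. Alternatives were edgeR 4.0.16 (quasi-likelihood) and DESeq2 1.42.0 on the recovered reads, other pseudocounts, no filter, TMM scaling, other use of the block, and each animal left out. The edgeR and DESeq2 fits had no term for the animal, so both layers of an animal entered them as independent libraries.

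Named genes are the 10 members, in each list the called genes (at most the 4 of smallest p) or, with none called, the 2 of smallest unadjusted p, and the 5 genes most like the mean standardized log2 value of the members over theca libraries. Of the genes that this rule takes from the lists between treatments, those with an unadjusted p under 0.05 are printed. Of the genes most like the members, 2 are not reported here.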

Additional observations from a re-analysis of the deposited data

Results flagged for a closer look

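Each of the 10 genes was examined in each of the 4 groups, 40 groups of 4 or 5 libraries in all, for a highest or lowest library that stood apart by Dixon's criterion. For independent groups of normally distributed values chance alone gives about 1 in 20, and 6 of 40 met it. These are normalized counts, and the same libraries recur for each gene, so the 6 cannot be weighed against that share. Of these 3 were in sheep 209. ENG in prenatal T theca had 4229 normalized counts in sheep 209, against 1656 to 2220 in the other 4 animals. PECAM1 in prenatal T theca had 5737 in sheep 209, against 832 to 1311 in the others. PECAM1 in prenatal T granulosa had 2667 in sheep 209, against 101 to 318 in the others.

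Of the remaining 3, TEK in prenatal T granulosa had 387 normalized counts in sheep 230, against 169 to 220 in the other 4 animals. VWF in control granulosa had 1633 in sheep 244, against 721 to 821 in the other 3, and CLDN5 in control granulosa had 68.4 in sheep 224, against 126 to 128. The VWF value of sheep 244 was also the highest of the control group in theca, at 10627.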

How the results depend on the processing

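The layer difference of each of the 10 genes kept its direction and its side of the threshold in every alternative run, apart from PECAM1 in DESeq2, which gave no adjusted p for it. The number of genes called between layers was 9309 with the animal as a block, and 8376 to 10441 with 1 animal left out. It was 5812 by edgeR, which had no term for the animal, and 5729 by limma with no replicate block. No member was called between prenatal T and control animals in either layer, or for the difference of effects, in any alternative. DESeq2 gave no adjusted p for PECAM1 in these comparisons either, so it could not be called there. Its DESeq2 differences were 0.741 in theca and 1.27 in granulosa, against 0.35 in each by limma, and -0.517 for the difference of effects. Over all genes the theca comparison called 0, against 2 with no filter on low values and 7 by DESeq2. The granulosa comparison called 0, against 2 with no filter, 20 by DESeq2 and 1 with the replicate block (both layers in 1 model). The difference of effects called 0, against 3 with a pseudocount of 0.5, 2 with no filter and 0 to 1 with 1 animal left out.

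Members that did not pass the test changed sign in places. In granulosa VWF was 0.030 by edgeR and 0.055 by DESeq2, and TEK was 0.037 by edgeR and 0.038 by DESeq2. For the difference of effects edgeR gave -0.47 for PECAM1 and 0.0035 for ROBO4, and the replicate block as a fixed term gave 0.031 for VWF. With 1 animal left out, the theca estimates ran over -0.20 to 0.14 for ENG, -0.12 to 0.58 for PECAM1 and -0.15 to 0.032 for KDR. The granulosa estimates ran over -0.54 to 0.23 for VWF, -0.078 to 0.48 for ENG, -0.38 to 0.80 for PECAM1, -0.40 to 0.086 for CDH5, -0.21 to 0.17 for TEK, -0.35 to 0.12 for KDR and -0.43 to 0.073 for FLT1. The differences of effects ran over -0.29 to 0.18 for VWF, -0.22 to 0.30 for PECAM1, -0.20 to 0.21 for CDH5, -0.22 to 0.34 for KDR and -0.34 to 0.11 for ROBO4. The cause was not tested. Groups of 4 and 5 animals, 1 of which stands apart, limit what these comparisons can show, and a p that misses the threshold does not show that groups are alike.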

Other observations

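Several listed genes known from endothelium had granulosa levels above the theca level of the same animal. Over 8 animals without sheep 209, the granulosa level as a percentage of the theca level had a median of 345% for HEY2, an arterial regulator (range 199% to 588%), and of 314% for FOXO1 (range 248% to 525%). Both were called lower in theca. ESM1, a gene of tip endothelium, had a median of 357% (range 71.7% to 485%). Its layer difference, theca minus granulosa, was -1.11 (limma adjusted p = 0.103) with all animals and -1.62 (limma adjusted p = 0.000368) without sheep 209, whose granulosa library had ESM1 at 0. NOS3 was not above the theca level in the median, at 95.0% (range 54.5% to 121%). With sheep 209 included, its theca level was higher in 5 of 9 animals. These genes were named after their values were seen.

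Lymphatic genes had lower and higher shares than the 10 blood vessel genes, whose medians ran from 14.5% to 96.0%. The median granulosa share, without sheep 209, was 1.61% for CCL21 and 2.93% for RELN, against 16.5% for FLT4 and 25.4% for LYVE1. It was 72.0% for PROX1 and 111% for PDPN, a glycoprotein that other cell types carry as well. STAB2 had the highest, at 173% (range 49.6% to 486%). No test was made of these shares.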
